A study of Mus musculus with 6 samples.

Results

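Fibroblast growth factors (FGFs), their receptors, and hepatocyte growth factor with its receptor were followed in synovial fibroblasts (SFs), the connective tissue cells of the joint lining. The 10 genes were chosen by name, as rows of the deposited table, for what they encode, with earlier results of these data known. These were the ligands Fgf2, Fgf7, Fgf10 and Fgf18, the receptors Fgfr1, Fgfr2, Fgfr3 and Fgfrl1, and Hgf with Met. They are 10 of the 49548 genes in the table. Of these 10, 9 passed the filter on low values (3 or more of the 6 libraries with a normalised count of 10 or above), as did 12614 genes in all. Fgfr3 was outside the filter. Fgf18 passed it only through the treated libraries and so had to differ.

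The SFs were primary cultures from ankle joints of hTNFtg mice, which carry a human TNF transgene and develop a destructive arthritis. The study asked how amisulpride, an antipsychotic drug and antagonist of dopamine receptors, alters these cells. One group was labelled as given no treatment and the other as given 500 μM amisulpride for 48 h, with 3 libraries each. RNA was read near the 3′ end of transcripts with QuantSeq, so a gene's count does not grow with its length and levels of different genes can be set side by side. Both groups carried the transgene, and the study's methods give mice of 8 weeks on a CBA C57BL/6J background and removal of CD45+ cells at passage 1. The same methods name a vehicle where the labels name none, so the controls are called untreated. The methods speak of biological replicates without giving the animals behind each culture, and no wild-type or dose series was compared here.

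Values are normalised counts, which the authors made from read counts. The spacing of low values fits a single scaling factor per library followed by rounding. Estimated depth was 2.52 to 4.71 M reads per library, with that of untreated replicate 1 uncertain, and the level that 3 reads would give, used as a floor of detection, was 2.50 to 5.37 normalised counts. The leading principal component, with 37.1% of the variance, set amisulpride replicate 3 apart (73.9, against -38.2 to 10.4 in the others), and this library was also the shallowest. All 12 fibroblast markers were tested, and their summed level was 45004 to 59714 in untreated and 51656 to 91388 in treated libraries. Of these 12, 7 had a log2 fold change above 0, Fap (1.12) the highest, and 5 had one under 0, Lum (-1.07) the lowest. Prg4 (-0.92) read 915, 859 and 733 in untreated and 426, 304 and 653 in treated libraries. It alone of the 12 had no group overlap, as did 8.66% of all genes on the lower side. All 10 myeloid markers were also tested, although CD45+ cells had been depleted, with sums of 2443 to 4339 and 2164 to 4203. Of these 10, 3 had a log2 fold change above 0, Adgre1 (0.83) the highest, and 7 had one under 0. Csf1r and Cd14 were lower by a log2 fold change of 1 or more at an unadjusted p under 0.05 (limma), as were 3.01% of all genes tested. Endothelial markers summed to 4 to 14 and 2 to 17, with Cdh5, Tie1 and Cldn5 at 0 in every library, and epithelial markers to 12 to 18 and 4 to 7, with Krt8, Krt18, Krt5, Krt14 and Esrp1 at 0. Chondrocyte and osteoblast markers, of which 4 of 10 were tested, summed to 700 to 1382 and 903 to 1707, and 3 of these 4, Sox9 (0.38), Comp (0.38) and Runx2 (0.31), had log2 fold changes above 0. The fourth, Alpl, read 63, 21 and 28 in untreated and 8, 4 and 5 in treated libraries, and passed the filter only through the untreated ones. The part of these cells in the differences below was not tested, and fewer cells of a type cannot be told apart from less RNA per cell.

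FGFs bind heparan sulphate and tyrosine kinase receptors together, and the bound receptors signal through adaptor proteins to the RAS-ERK and PI3K pathways. FGF7 and FGF10 are made by mesenchymal cells and act mainly on the epithelial splice form of FGFR2, FGF2 acts on several receptors, and FGF18 is known for its action on chondrocytes. HGF is likewise a mesenchymal factor, made as an inactive precursor, whose only known receptor is the MET kinase.

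The bases just upstream of 3 ligand genes are shown because these genes passed the study's thresholds, given below, in opposite directions: Fgf18 and Hgf were higher with amisulpride and Fgf10 was lower. The window of Fgf2, also higher, lies in annotated exons and is left out. Each sequence is the 250 bases before a start site in RefSeq, on build GRCm38.p6 (the same coordinates as mm10), read 5′ to 3′ on the gene's strand. Capitals mark a GC box.

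Fgf18 (chr11:33147401-33147650, minus strand): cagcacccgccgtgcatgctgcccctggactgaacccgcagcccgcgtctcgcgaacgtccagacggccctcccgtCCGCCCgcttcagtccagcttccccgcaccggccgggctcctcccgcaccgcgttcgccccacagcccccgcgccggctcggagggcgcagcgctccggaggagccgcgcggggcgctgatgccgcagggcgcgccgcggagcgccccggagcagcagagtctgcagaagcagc
Fgf10 (chr13:118714449-118714698, plus strand): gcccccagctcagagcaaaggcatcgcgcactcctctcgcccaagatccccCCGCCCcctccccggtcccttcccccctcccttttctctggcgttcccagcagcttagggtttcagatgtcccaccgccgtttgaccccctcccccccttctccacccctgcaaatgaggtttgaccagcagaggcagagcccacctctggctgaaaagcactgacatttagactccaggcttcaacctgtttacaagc
Hgf (chr5:16553245-16553494, plus strand): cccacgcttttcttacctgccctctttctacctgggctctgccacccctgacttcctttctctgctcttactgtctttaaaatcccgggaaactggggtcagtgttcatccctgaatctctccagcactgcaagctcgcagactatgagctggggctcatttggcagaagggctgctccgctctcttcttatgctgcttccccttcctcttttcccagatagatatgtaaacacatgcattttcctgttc

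The Fgf18 window had a GC content of 77.2%, the Fgf10 window 61.2% and the Hgf window 50.8%. Both strands were searched for 5 motifs that are bound by widely expressed factors. The AP-1 motif was spelled TGANTCA and is found in 6.75% of 32851 mouse promoter windows of this length. The CRE was spelled TGACGTCA and is found in 1.55% of them. The GC box was spelled GGGCGG, with 32.7%, the TATA box was spelled TATAAA, with 12.4%, and the ETS motif was spelled CCGGAAG, with 6.91%. Fgf18 and Fgf10 held 1 GC box each and no other motif of the 5. The Hgf window held none of the 5 motifs. The RefSeq start of Fgf10 lies inside the gene as deposited, whose first base is 118669791. A match describes these letters only, and its absence says nothing about a factor.

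Among the 9 tested genes, 4 passed the thresholds the study used for calling genes, a log2 fold change of 1 or more in either direction and an unadjusted p under 0.05, here by limma. Fgf2, Fgf18 and Hgf were higher and Fgf10 was lower. Of all genes tested 5.7% were called at these thresholds, 2.69% as higher and 3.01% as lower. An unadjusted p under 0.05 was reached by 5 of the 9, Fgfr2 being the fifth, against 10.9% of all genes. Of the 5, 4 were higher and 1 was lower, against 5.11% and 5.77% of all genes. After Benjamini-Hochberg adjustment over all genes in limma, 0 of the 9 were under 0.05, against 0.285% of all genes, 0.0951% higher and 0.19% lower. The groups did not overlap for 4 genes, Fgf2, Fgf18 and Fgfr2 (higher) and Fgf10 (lower), against 16.5% of all genes, 7.8% higher and 8.66% lower. The median log2 fold change of the 9 was 0.33 and that of all genes tested 0.00. These counts include Fgf18, whose passage through the filter its treated values fixed. The genes were chosen with earlier results of these data known, so the counts are a description.

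**Figure D1:**
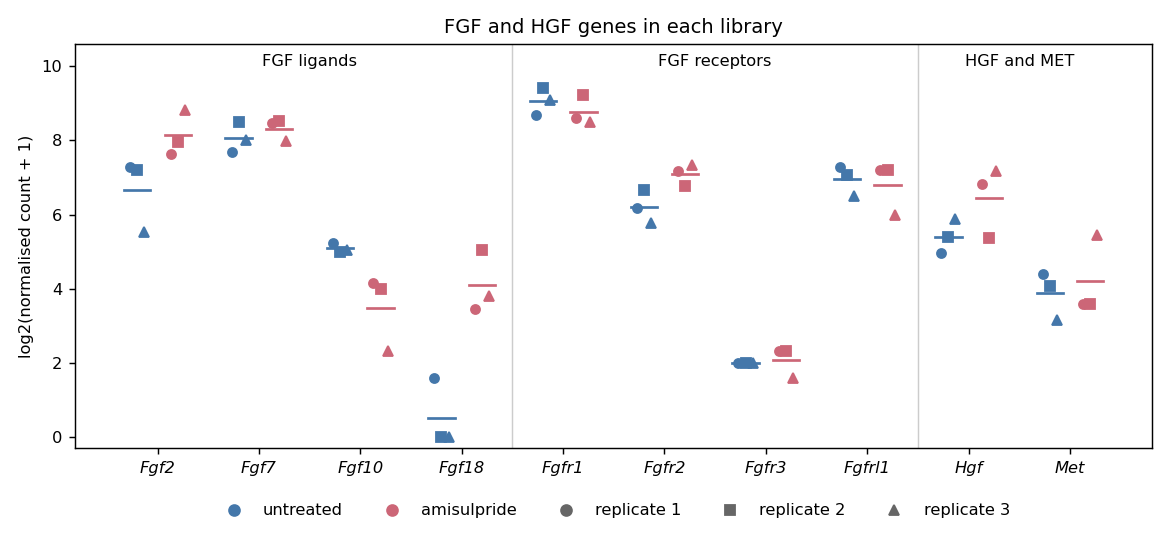
Level of each of the 10 genes in each library, as log2(normalised count + 1), with untreated libraries in blue, amisulpride libraries in red, a marker shape for each replicate number and a bar at the group mean. The red points lie above the blue ones for Fgf2, Fgf18 and Fgfr2 and under them for Fgf10, and the groups overlap for the other genes.

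In untreated SFs the most abundant of the 10 was Fgfr1, at 544 ± 136 normalised counts (SD, n = 3), followed by Fgf7 at 274 ± 78.1, and the ranges of these neighbours were separate. Fgfrl1 (126 ± 33.0), Fgf2 (115 ± 61.1), Fgfr2 (75.3 ± 23.2), Hgf (43.0 ± 14.1) and Fgf10 (33.3 ± 3.21) followed, and neighbours within this run overlapped. Met, Fgfr3 and Fgf18 came last, each under the range before it. In treated SFs only Fgf2 and Fgfr2 had separate ranges among neighbours in the order, which ran Fgfr1, Fgf7, Fgf2, Fgfr2, Fgfrl1, Hgf, Met, Fgf18, Fgf10 and Fgfr3.

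Fgf18 (ENSMUSG00000057967, chr11:33117430-33147400, minus strand) encodes an FGF that acts on cartilage and bone cells. It read 2, 0 and 0 normalised counts in untreated and 10, 32 and 13 in amisulpride libraries. Untreated libraries all lay at or under the floor, and every treated library lay above its own. The treated group totalled approximately 42 reads and the untreated group 2, a ratio of 27.3 after allowing for depth (exact conditional 95% interval 7.11 to 233, for counting error alone). The fitted log2 fold change was 3.58 ± 0.84 (SE, limma), with adjusted p = 0.113. With the replicate number as a block the adjusted p was 0.0441, and with library weights 0.0298, settings under which 2.08% and 1.55% of all genes were under 0.05. The interval pools the reads of each group and leaves out the spread between libraries. Since its treated values brought Fgf18 into the test, the ratio, its interval and these p-values are given as a description. Its untreated level rests on so few reads that the fitted value depends on the added count of 1.

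Fgf2 (ENSMUSG00000037225, chr3:37348346-37410108, plus strand) encodes basic FGF, a mitogen of fibroblasts that is stored in the matrix. Untreated libraries read 155, 146 and 45 and amisulpride libraries 198, 246 and 451 normalised counts. The groups did not overlap, untreated replicate 3 being the lowest and amisulpride replicate 3 the highest. Means were 115 ± 61.1 and 298 ± 134 (SD, n = 3). By limma the log2 fold change was 1.47 ± 0.46 (SE) and the adjusted p = 0.245. Without untreated replicate 3 the log2 fold change was 0.89, under the fold threshold. Nudt6, on the opposite strand, shares 640 exonic bases with Fgf2, and whether reads were counted by strand is not given in the sources used here. Nudt6 read 5, 11 and 11 in untreated and 16, 27 and 4 in treated libraries, a level well under that of Fgf2. Gm43439, on the same strand as Fgf2, shares 255 exonic bases with it. It read 0, 2 and 0 in untreated and 0, 3 and 2 in treated libraries.

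Fgf10 (ENSMUSG00000021732, chr13:118669791-118792115, plus strand) encodes a ligand of the epithelial form of FGFR2. Untreated libraries read 37, 31 and 32 and amisulpride libraries 17, 15 and 4 normalised counts. All treated values lay under all untreated ones, and amisulpride replicate 3 was under its floor, with approximately 2 reads. Means were 33.3 ± 3.21 and 12.0 ± 7.00 (SD, n = 3). The log2 fold change was -1.60 ± 0.52 (SE), with adjusted p = 0.260 by limma. Without amisulpride replicate 3 it was -1.01, still past the study thresholds.

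Fgf7 (ENSMUSG00000027208, chr2:126034658-126091185, plus strand), keratinocyte growth factor and the closest relative of Fgf10 among these ligands, read 205, 359 and 259 in untreated and 353, 364 and 251 in treated libraries. The groups overlapped. Its log2 fold change was 0.25 with a 95% interval of -0.36 to 0.87 (adjusted p = 0.785, limma).

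The makeup of the 4 ligands was then compared library by library. Their sum was 399, 536 and 336 normalised counts in untreated and 578, 657 and 719 in treated libraries, and the groups did not overlap. Fgf10 made up 8.19 ± 2.09% of the sum in untreated and 1.93 ± 1.23% in treated SFs (SD, n = 3), again without overlap. Fgf2 made up 26.5 ± 12.7% and 44.8 ± 15.6%, and Fgf7 65.1 ± 12.9% and 50.5 ± 13.8%, both with overlap. The ratio of Fgf7 to Fgf10 was 5.54, 11.6 and 8.09 in untreated and 20.8, 24.3 and 62.8 in treated libraries. The sum, the Fgf10 share and this ratio are built from the values given above. Full separation, which each showed, gives an exact two-sided permutation p of 0.1. That is the smallest that 3 against 3 libraries can give, so it only restates the separation. With same-numbered libraries as pairs each had the same direction in 3 of 3 pairs, and the exact two-sided sign-flip p was 0.25, the smallest that 3 pairs can give.

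**Figure D2:**
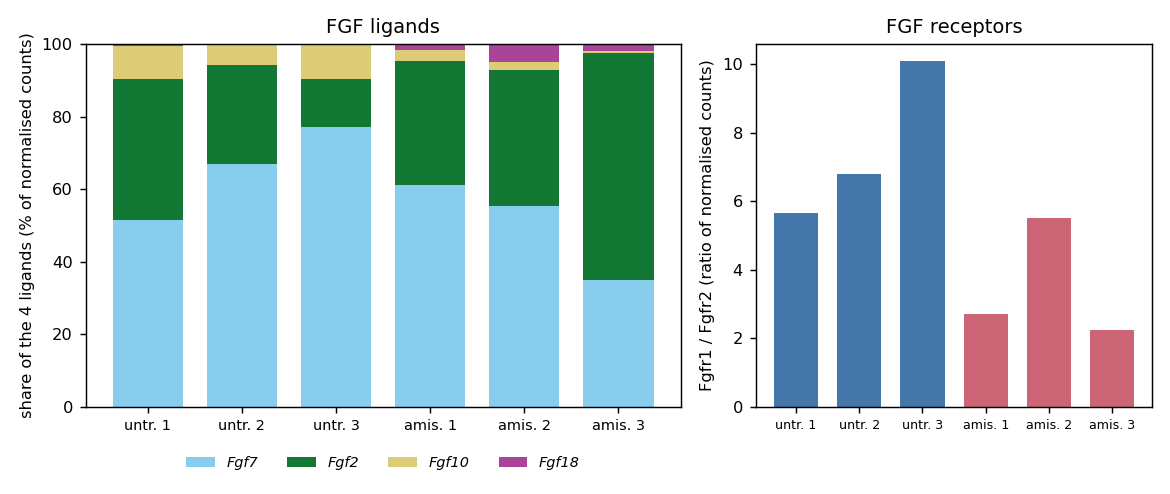
Left, share of Fgf7, Fgf2, Fgf10 and Fgf18 in their summed normalised counts in each library (percent), and right, ratio of the Fgfr1 to the Fgfr2 normalised count in each library (blue, untreated; red, amisulpride). The Fgf10 share is 8.19% on average in untreated and 1.93% in treated libraries, and each treated ratio, 5.50 at most, lies under each untreated one, 5.67 at least.

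Fgfr2 (ENSMUSG00000030849, chr7:130162451-133123350, minus strand) encodes the receptor of FGF7 and FGF10 in epithelia and, in another splice form, a mesenchymal receptor. A gene total of 3′ reads does not separate these forms. Untreated libraries read 72, 100 and 54 and amisulpride libraries 145, 108 and 161 normalised counts, without overlap, though untreated replicate 2 and amisulpride replicate 2 were close. The log2 fold change was 0.89 ± 0.31 (SE, 95% interval 0.22 to 1.56), with adjusted p = 0.284 by limma, under the fold threshold. Without untreated replicate 2 it was 1.11 and without amisulpride replicate 2 it was 1.06, past both thresholds. Without untreated replicate 3 it was 0.68, and the unadjusted p was then above 0.05. The deposited span of Fgfr2 covers 69 other genes of the table, of which Ctbp2 alone shares exonic bases with it, 314 in number. Ctbp2, on the same strand, read 108, 111 and 139 in untreated and 133, 130 and 150 in treated libraries (log2 fold change 0.21). Reads of Fgfr2 and Ctbp2 cannot be told apart over the shared bases, and the part of Ctbp2 in the Fgfr2 value was not tested.

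Fgfr1 (ENSMUSG00000031565, chr8:25513654-25575718, plus strand), the main FGF receptor of mesenchymal cells, read 408, 679 and 545 in untreated and 391, 594 and 360 in treated libraries. The groups overlapped, and the log2 fold change was -0.28 with a 95% interval of -0.91 to 0.34 (adjusted p = 0.760, limma). The ratio of Fgfr1 to Fgfr2 was 5.67, 6.79 and 10.1 in untreated and 2.70, 5.50 and 2.24 in treated libraries. The ratios did not overlap, although 5.50 and 5.67 are near each other. The exact two-sided permutation p was 0.1, or 0.25 by sign flips within pairs, each the smallest that these libraries can give. The ratio is built from the values of Fgfr1 and Fgfr2 given above, so these p-values only restate the separation. The sum of Fgfr1 and Fgfr2, 619 ± 151 and 586 ± 100 normalised counts, overlapped.

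Fgfrl1 (ENSMUSG00000008090, chr5:108692382-108706924, plus strand) encodes an FGF-binding receptor that lacks the kinase domain. It read 155, 132 and 90 in untreated and 147, 147 and 63 in treated libraries, with overlap. Its log2 fold change was -0.14 (95% interval -0.95 to 0.66) and changed sign when single libraries were left out. Fgfr3 (ENSMUSG00000054252, chr5:33721674-33737068, plus strand), a receptor prominent in cartilage, read 3, 3 and 3 in untreated and 4, 4 and 2 in treated libraries, at or near the floor, so that no difference was detectable at this depth.

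Hgf (ENSMUSG00000028864, chr5:16553495-16620152, plus strand) encodes hepatocyte growth factor, or scatter factor. Untreated libraries read 30, 41 and 58 and amisulpride libraries 113, 40 and 145 normalised counts. Amisulpride replicates 1 and 3 lay above every untreated library, whereas amisulpride replicate 2 lay within the untreated range, so the groups overlapped. Means were 43.0 ± 14.1 and 99.3 ± 53.8 (SD, n = 3). The log2 fold change was 1.05 ± 0.46 (SE), with adjusted p = 0.434 by limma, barely past both study thresholds. It no longer passed them without untreated replicate 1 (0.82) or 2 (1.04, its unadjusted p then above 0.05), or without amisulpride replicate 1 (0.86) or 3 (0.69). With the replicate block the unadjusted p of Hgf was 0.00993 and its adjusted p 0.16 (limma).

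Inside Hgf, on the same strand, lies Gm43489 (chr5:16572951-16573943), a row the annotation marks as still to be experimentally checked (TEC). Of its bases 484 are shared with an exon of a retained-intron transcript of Hgf. It read 5, 4 and 14 in untreated and 56, 19 and 34 in treated libraries, without overlap. The log2 fold change was 2.16 ± 0.57 (SE), with adjusted p = 0.165 by limma, or 0.0359 with the replicate block. Reads of the 2 rows cannot be told apart over the shared bases, so the value of each is uncertain.

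Met (ENSMUSG00000009376, chr6:17463800-17573980, plus strand), the HGF receptor, read 20, 16 and 8 in untreated and 11, 11 and 43 in treated libraries. Amisulpride replicate 3 stood highest and the other treated libraries lay within the untreated range. The log2 fold change was 0.33 with a 95% interval of -0.99 to 1.64 (adjusted p = 0.874, limma), and without amisulpride replicate 3 it was -0.30.

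**Figure D3:**
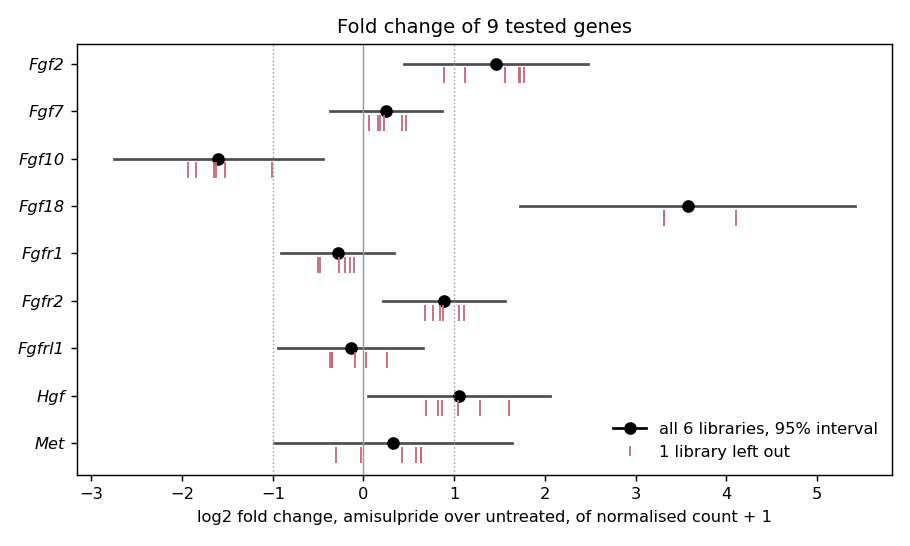
Log2 fold change of amisulpride over untreated (black point, all 6 libraries; line, 95% interval from limma) for the 9 tested genes, with a red tick for each fit that left out 1 library and dotted lines at -1 and 1. Fgf18 has ticks only where an untreated library was left out, since with 2 treated libraries it was not tested. The Hgf ticks run from 0.69 to 1.60 and those of Met lie on both sides of 0.

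The genes whose pattern over the 6 libraries was most like that of each called gene were found by the root mean square difference of centred log2 values, among 12613 genes. For Fgf10 they included Stac2 at 0.192 and Itpripl1 at 0.215. For Fgf2 they were Gm34779 (0.225), Prelp (0.256) and Rmdn1 (0.277). For Hgf they were Gm8319 (0.247), Slc3a2 (0.275) and Crcp (0.306). For Fgf18 Lcn2, which encodes the secreted protein lipocalin 2, was nearest at 0.384. It read 35, 16 and 9 in untreated and 231, 361 and 159 in treated libraries. Kcnk15 (0.706) and Gm12216 (0.741) came next and, like Fgf18, passed the filter only through the treated libraries.

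The rest of the pathway was described by 5 lists of 107 genes, of which 73 were tested. At the study thresholds 0 were higher and 3 lower, Etv4, Ndst2 and Plaur, and at an unadjusted p under 0.05 by limma 6 were higher and 5 lower. These are 4.11% and 15.1% of the 73, against 5.7% and 10.9% of all genes tested. The groups did not overlap for 7 genes in each direction, or 19.2%, against 16.5% of all genes, 7.8% higher and 8.66% lower. The adjusted p was under 0.05 for 0 of the 73, and the median log2 fold change was -0.05. Each count of lower genes includes Etv4, which passed the filter only through the untreated libraries and so had to differ.

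Of 23 other FGF ligands and receptors 2 were tested and 10 were at 0 in every library, Fgfr4 and the co-receptor Kl among them. Fgf9 read 20, 24 and 15 in untreated and 25, 60 and 38 in treated libraries, without overlap (log2 fold change 0.96, adjusted p = 0.427, limma). Fgf5 read 51, 25 and 21 against 37, 25 and 43, a log2 fold change of 0.18.

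All 23 genes of heparan sulphate proteoglycans and their enzymes were tested. At the study thresholds 0 were higher and 1 was lower, against 2.69% and 3.01% of all genes. At an unadjusted p under 0.05 by limma 2 were higher and 1 was lower, against 5.11% and 5.77%. The median log2 fold change was -0.07. Ndst2, which removes acetyl groups from heparan sulphate and adds sulphate, read 102, 83 and 108 in untreated and 67, 47 and 32 in treated libraries, without overlap. Its log2 fold change was -1.04 ± 0.33 (SE, adjusted p = 0.241, limma), and it fell short of the fold threshold without untreated replicate 3 (-0.97) and without amisulpride replicate 3 (-0.78). Gpc4, a glypican of the cell surface, read 316, 405 and 485 against 758, 810 and 802, again without overlap, with a log2 fold change of 0.99 ± 0.24, just under the fold threshold. Its adjusted p was 0.128 by limma, or 0.0489 with the replicate block, which put 2.08% of all genes under 0.05. Gpc6, another glypican, had a log2 fold change of 0.74 (adjusted p = 0.350, limma). The abundant Gpc1, Hs6st2 and Sulf2 had log2 fold changes of -0.65, 0.32 and 0.82, with overlapping groups, and that of Sulf2 was 0.12 without amisulpride replicate 3.

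Of 25 receptor adaptors and members of the RAS-ERK cascade 24 were tested, with 0 past the study thresholds in either direction and a median log2 fold change of -0.02. At an unadjusted p under 0.05 by limma 1 was higher and 1 was lower, against 5.11% and 5.77% of all genes. Pik3r1, the regulatory subunit of PI3-kinase, read 101, 93 and 119 in untreated and 216, 214 and 181 in treated libraries, without overlap (log2 fold change 0.96 ± 0.25, adjusted p = 0.151, limma). Map2k2, a kinase that activates ERK, had a log2 fold change of -0.58 (adjusted p = 0.457, limma). The abundant Akt1, Map2k1 and Mapk3 had log2 fold changes of 0.35, -0.06 and -0.25.

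Of 20 feedback and target genes of FGF signalling 17 were tested, with a median log2 fold change of 0.00. At the study thresholds 0 were higher and 1 was lower, against 2.69% and 3.01% of all genes. Etv4, an ETS transcription factor induced by FGF in many tissues, read 21, 11 and 11 in untreated and 4, 4 and 2 in treated libraries, without overlap. The log2 fold change was -1.80 ± 0.63 (SE, adjusted p = 0.291, limma). Etv4 passed the filter only through the untreated libraries and so had to differ. The related and more abundant Etv5 had a log2 fold change of -0.003. Etv1, outside the filter, read 2, 3 and 3 in untreated and 13, 7 and 7 in treated libraries, without overlap. Il17rd and Flrt2, both regulators of FGF receptors, were the 2 genes that were higher at an unadjusted p under 0.05, as were 5.11% of all genes. Their log2 fold changes were 0.73 and 0.76, with no group overlap. Dusp6, an ERK phosphatase, had a log2 fold change of 0.19, Ccnd1 of 0.44 and Egr1 of -0.05, none with an unadjusted p under 0.05.

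Of 16 genes of HGF activation and MET partners 7 were tested, with a median log2 fold change of -0.31. At the study thresholds 0 were higher and 1 was lower, against 2.69% and 3.01% of all genes. At an unadjusted p under 0.05 by limma 0 were higher and 2 lower, against 5.11% and 5.77%. Plaur, the urokinase receptor, read 120, 100 and 82 in untreated and 52, 37 and 43 in treated libraries, without overlap (log2 fold change -1.17 ± 0.29, adjusted p = 0.138, limma). Plat, tissue plasminogen activator, had a log2 fold change of -0.69 (adjusted p = 0.344, limma). Cd44 and Plxnb2, which associate with MET, both had log2 fold changes of -0.31 and overlapping groups.

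**Figure D4:**
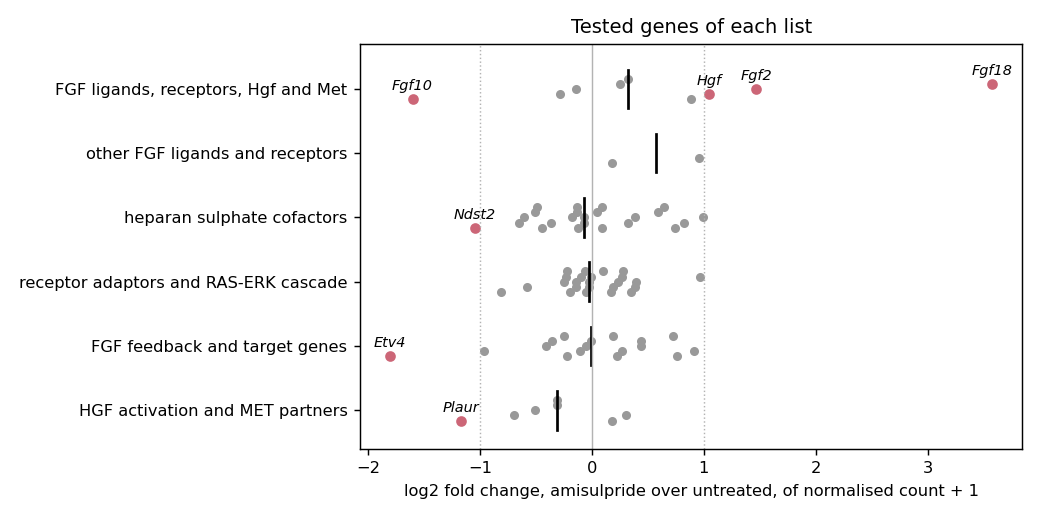
Log2 fold change of amisulpride over untreated (normalised count + 1) for each tested gene of 6 lists, with genes past the study thresholds in red and named, the others in grey, and a black bar at the list's median. Grey points of the 5 pathway lists lie between -1 and 1, and the 3 red points there, Ndst2, Etv4 and Plaur, are all on the lower side. Etv4 passed the filter only through the untreated libraries.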

How the data were processed

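QuantSeq 3′ libraries of 3 untreated and 3 amisulpride-treated hTNFtg SF cultures were analysed. The submitters' notes name TopHat2, Bowtie2, DESeq and build mm10. The deposited values are a score, namely counts that the authors normalised. The spacing of low values fits a single factor per library and rounding (98.7% to 99.7% of values reachable in the 3 libraries with a step above 1), which no source used here states. Reads per library were estimated from the spacing of low values. Columns of the authors' own fold changes and p-values, and 12 other per-sample columns, were not used. Groups were compared with limma 3.58.1 (R 4.3.3) with a mean-variance trend on log2(normalised count + 1), which understates changes of low genes. Tests were two-sided, with Benjamini-Hochberg adjustment over 12614 genes. Other pseudocounts, filters, scalings and library weights, and leaving out each library, were tried. Floors and the read-ratio interval cover counting error only, since reads carried no molecular identifiers. The script was tested on simulated data. The p-values measure the spread between cultures, whose independence the labels do not state. Deviations of same-numbered libraries correlated across genes at 0.229, 0.240 and 0.201, so the numbers may mark pairs. The main fit left this pairing out, and a fit with a replicate block was an alternative. The makeup of ligands and receptors was not among the planned comparisons, and the paired sign-flip test was added after seeing the data. The members and lists were chosen with earlier results of these data known. Named genes were all members, the overlapping genes Nudt6, Gm43439, Ctbp2 and Gm43489, and per list those past the study thresholds and up to 3 of the most abundant. Gm16263, Gm16159 and G630022F23Rik share exonic bases with Fgf10, Fgfr1 and Fgfr3 and read 2 normalised counts at most. Gpc4, Gpc6, Pik3r1, Map2k2, Il17rd, Dusp6, Etv1, Etv5, Csf1r, Cd14, Alpl, Fap, Lum and Prg4 were chosen after their values were seen. Members' coordinates equal those of GENCODE M21. A gene with a pattern like that of Fgf10 is not reported here.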

Additional observations from a re-analysis of the deposited data

How the results depend on the processing

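With other settings of the processing 120 fold changes of the 9 tested genes were recomputed, of which 105 kept direction and side of the study thresholds. The 105 include those of genes that no setting took past the thresholds. Of the others 8, all of Hgf or Fgf2, fell short of the study thresholds, 2, of Fgfr2, newly passed them and 5 changed sign. Settings in which a gene was not tested are not among the 120. Members past these thresholds numbered 1 instead of 4 with a mean of at least 50 required, where Fgf10, Fgf18 and Met were no longer tested, and 2 to 4 with 1 library left out. The 2 stood without amisulpride replicate 1 and without amisulpride replicate 3, where Fgf18 was not tested either. All genes past these thresholds, 719 of 12614 in the main fit, numbered 327 of 8061 under that filter and 563 to 1000 with 1 library left out. Members with an unadjusted p under 0.05 numbered 2 instead of 5 under that filter and 3 to 4 with 1 library left out. For all genes this number was 1373 in the main fit, 873 under that filter and 911 to 1630 with 1 library left out. Members with an adjusted p under 0.05 (0) became 1, Fgf18, with library weights and with the replicate block, and stayed at 0 with each library left out in turn. The block changed no other call of the members and no study-threshold call of the pathway genes. It brought 1 of the 73 tested pathway genes, Gpc4, under an adjusted p of 0.05, against 2.08% of all genes. It also changed the unadjusted call of 4 pathway genes, while all genes with an unadjusted p under 0.05 went from 1373 to 1838. With the block the adjusted p by limma was 0.0761 for Fgf2, 0.0975 for Fgf10, 0.173 for Fgfr2 and 0.16 for Hgf. Pathway genes past the study thresholds (3) numbered 5 with no filter and 2 to 6 with 1 library left out, 6 without amisulpride replicate 1 and 5 without amisulpride replicate 2. For all genes this number, 719 in the main fit, was 1313 with no filter, 1000 without amisulpride replicate 1 and 730 without amisulpride replicate 2. With 1 library left out the log2 fold change of Fgfrl1 ran from -0.36 to 0.26, that of Met from -0.30 to 0.64 and that of Nudt6 from -0.047 to 1.20. Fgfrl1 turned to 0.19 with library weights, 0.02 without untreated replicate 1 and 0.26 without amisulpride replicate 3. Met turned to -0.03 without untreated replicate 3 and -0.30 without amisulpride replicate 3, and Nudt6 to -0.047 without amisulpride replicate 2. Hgf also fell short with a pseudocount of 5 (0.99), a mean of at least 50 (1.05, its unadjusted p then above 0.05) and library weights (0.69). In an alternative chosen after seeing the data, with no filter and 1 treated library left out, Fgf18 stood at 3.11 to 3.90, and the unadjusted p of Fgf2 (1.12) was above 0.05 without amisulpride replicate 3. The cause of these shifts was not tested. Depth limits Fgf18, Fgfr3 and Fgf10, which lie at or near the floor in some libraries.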
